A study of Homo sapiens with 28 samples.

Results

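Readthrough peaks were m6A peaks lying past the annotated end of a protein-coding gene, on the strand of that gene. A peak was taken as one when its summit fell in no GENCODE gene on either strand, 1 to 10000 bases downstream of the nearest protein-coding gene end on its strand, and outside the interval from 1000 bases before to 100 bases after any transcript start on either strand. This rule was met by 8314 of the 495694 peaks on chromosomes 1 to 22 and X, summed over 14 libraries, and by 319 to 761 peaks in any 1 library. The peaks lay downstream of 1051 of the 13444 protein-coding genes that had any eligible base in that interval. Merging overlapping peaks of the same strand across the libraries gave 1581 readthrough regions among 86263 regions, or 1.83%, downstream of 1009 genes.

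The libraries were m6A immunoprecipitations of chromatin-associated RNA, depleted of ribosomal RNA, from 3 established human cell lines. HepG2 derives from a liver tumour, K562 from chronic myelogenous leukaemia in blast crisis and NB4 from acute promyelocytic leukaemia. There were 6 groups: untreated HepG2 WT (n = 2) and K562 WT (n = 2), K562 Control (n = 2) and NB4 Control (n = 3), which carried a non-targeting short hairpin RNA, and K562 RBFOX2 KD (n = 2) and NB4 RBFOX2 KD (n = 3), which carried a hairpin against RBFOX2. The hairpins were delivered by lentivirus, which the WT libraries did not receive, and the sources used here do not say which hairpin was in which library. RBFOX2 is an RNA-binding splicing regulator, and the study asked how it relates to m6A on chromatin-associated RNA. The study's methods call the replicates biological without describing their cultures, and the p-values below measure the spread between these samples.

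RNA polymerase II does not stop at the end of a gene. The transcript is cleaved at the polyadenylation site, the mature messenger RNA leaves, and the polymerase continues downstream while the uncapped remainder is degraded from its free end, until transcription terminates. This downstream RNA stays with chromatin, so that a chromatin fraction holds it and a cytoplasmic one largely does not. m6A is deposited during transcription by the METTL3 and METTL14 complex, mainly within the DRACH consensus, of which GGACU is a frequent form. A peak list gives where m6A RNA was enriched and not whether that RNA was continuous with the gene before it. Unannotated transcripts that start inside the downstream interval cannot be told apart from readthrough here.

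Summit sequences are shown for 9 regions whose values are given below: 4 listed in all 14 libraries, the highest-ranked region of K562 alone and of NB4 alone, and 3 downstream of histone genes. Each run is the 151-base window centred on the summit in hg38, 5′ to 3′ on the strand of the gene and in DNA letters, with every DRACH match in capitals. The first set lay downstream of NAT10 at chr11:34149084-34149234 on the plus strand, CDK11A at chr1:1698829-1698979 on the minus strand, ZBED4 at chr22:49893610-49893760 on the plus strand and NDUFS5 at chr1:39043618-39043768 on the plus strand.
NAT10: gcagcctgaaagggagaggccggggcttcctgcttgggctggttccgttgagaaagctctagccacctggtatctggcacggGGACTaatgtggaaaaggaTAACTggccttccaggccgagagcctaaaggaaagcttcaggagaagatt
CDK11A: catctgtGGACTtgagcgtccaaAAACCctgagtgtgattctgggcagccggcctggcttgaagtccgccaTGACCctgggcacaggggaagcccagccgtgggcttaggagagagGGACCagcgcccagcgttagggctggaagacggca
ZBED4: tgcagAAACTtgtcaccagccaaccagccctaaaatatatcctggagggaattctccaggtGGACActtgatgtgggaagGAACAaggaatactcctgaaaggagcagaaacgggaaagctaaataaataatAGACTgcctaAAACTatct
NDUFS5: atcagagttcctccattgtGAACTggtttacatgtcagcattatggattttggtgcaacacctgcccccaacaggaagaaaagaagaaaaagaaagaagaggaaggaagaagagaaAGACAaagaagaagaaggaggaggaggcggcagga

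The next set holds, for K562 and for NB4, the highest-ranked region listed in every library of the line and in no other library. These lay downstream of TNNI3 for K562, at chr19:55151565-55151715 on the minus strand, and of MYO1G for NB4, at chr7:44962054-44962204 on the minus strand.
TNNI3: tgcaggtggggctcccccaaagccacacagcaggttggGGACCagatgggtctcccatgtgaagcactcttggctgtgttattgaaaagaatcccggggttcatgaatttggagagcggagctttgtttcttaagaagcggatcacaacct
MYO1G: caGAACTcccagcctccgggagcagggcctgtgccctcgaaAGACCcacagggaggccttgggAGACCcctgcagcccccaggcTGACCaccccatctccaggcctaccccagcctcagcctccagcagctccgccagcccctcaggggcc

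The last set lay downstream of 3 histone genes with a readthrough peak in every K562 library: H2BC17 at chr6:27894676-27894826 on the plus strand, H4C9 at chr6:27139720-27139870 on the plus strand and H3C12 at chr6:27889836-27889986 on the minus strand.
H2BC17: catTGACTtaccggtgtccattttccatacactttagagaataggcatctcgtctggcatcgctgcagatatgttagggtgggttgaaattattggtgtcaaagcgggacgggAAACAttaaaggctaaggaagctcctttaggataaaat
H4C9: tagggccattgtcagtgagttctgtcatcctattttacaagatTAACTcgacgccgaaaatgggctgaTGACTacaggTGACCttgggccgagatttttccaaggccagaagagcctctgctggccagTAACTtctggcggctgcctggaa
H3C12: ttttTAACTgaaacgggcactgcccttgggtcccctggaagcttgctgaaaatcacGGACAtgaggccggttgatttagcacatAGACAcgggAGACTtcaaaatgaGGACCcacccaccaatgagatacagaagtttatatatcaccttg

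All 9 windows held DRACH, from 1 match downstream of TNNI3 to 5 downstream of ZBED4 and of H3C12. GGACU, written here with T for U, was present once downstream of NAT10 and once downstream of CDK11A and in none of the other windows. Not every window is unique in the genome. Copies of the 31-base words in hg38 were looked up for the windows other than those of the histone genes. All words downstream of NAT10, ZBED4, NDUFS5, TNNI3 and MYO1G occurred once. Copy numbers of the printed histone windows were not looked up. The CDK11A words had a median of 2 copies. Of the regions described below but not printed, the PICALM words had a median of 194 copies, and 55.4% of the ABCC5 words occurred once. The ANKRD36 words had a median of 2 copies with none occurring once, and 57.0% of the ADGRG6 words occurred once. The position of the PICALM, CDK11A and ANKRD36 reads is therefore uncertain. Over all 1581 readthrough regions, 83.0% had a median copy number of 1 and 7.53% had 10 or more copies, beside 81.5% and 8.99% of all 86263 regions.

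Across all members, the methylation consensus was denser at the summit than beside it. DRACH, which is short and degenerate, occurred in 94.8 to 99.7% of readthrough summit windows and in 92.7 to 95.1% of windows centred 300 bases to either side. The full GGACU pentamer, searched on the strand of the peak, separated the windows more clearly. Its share was 23 to 34.04% at readthrough summits and 10.9 to 14.7% in the flanks, an excess of 10.6 to 22.5 percentage points that was present in 14 of 14 libraries. The corresponding excess over all peaks of the same lists was 9.76 to 17.2 points. The difference between readthrough and all peaks was not tested.

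Readthrough peaks were modest in rank and shape. Ranks are given as percentiles of the −log10 q in the list of a library, with 100 for the most significant peak. The median readthrough peak stood at percentile 39.4 to 46.5, beside 38.9 to 44.6 for the other peaks in no gene and at no promoter. The median fold over local background was 3.92 to 7.36 and the median width 228 to 311 bases, where all peaks had medians of 3.84 to 8.01 and 243 to 343 bases. The read number behind the lists, estimated from the background level of the peak caller, ran from 10.8 to 30.04 M, lowest in NB4 Control and highest in HepG2.

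The share of peaks that met the rule was lowest in HepG2 and highest in NB4. It was 1.41% and 1.32% in the HepG2 WT libraries (1.36% ± 0.0661, SD, n = 2) and 1.46% and 1.44% in K562 WT (1.45% ± 0.00981, SD, n = 2). It was 1.72% and 1.65% in K562 Control (1.68% ± 0.0457, SD, n = 2) and 1.68% and 1.60% in K562 RBFOX2 KD (1.64% ± 0.0586, SD, n = 2). In NB4 Control the libraries gave 1.77%, 1.83% and 1.88% (1.83% ± 0.0528, SD, n = 3) and in NB4 RBFOX2 KD 1.92%, 1.80% and 1.93% (1.88% ± 0.0749, SD, n = 3). The NB4 libraries all lay above the K562 libraries, and the 4 WT libraries all lay below the other 10.

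None of these differences passed a test, and the designs were too small to allow it. NB4 Control exceeded K562 Control by 0.145 percentage points (exact permutation test, two-sided, p = 0.1, the smallest that 3 against 2 allows). K562 WT exceeded HepG2 WT by 0.0859 points (exact permutation test, p = 0.333, the smallest that 2 against 2 allows). This difference turned to −8.59 points when the share was taken of peaks outside genes rather than of all peaks. K562 Control exceeded K562 WT by 0.235 points (exact permutation test, p = 0.333). With depth matched the 3 differences were 0.131, 0.052 and 0.247 points. The sample labels name no batch. Any difference in handling cannot be told apart from cell line in the contrasts between lines, nor from the lentiviral hairpin between K562 Control and WT.

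**Figure D1:**
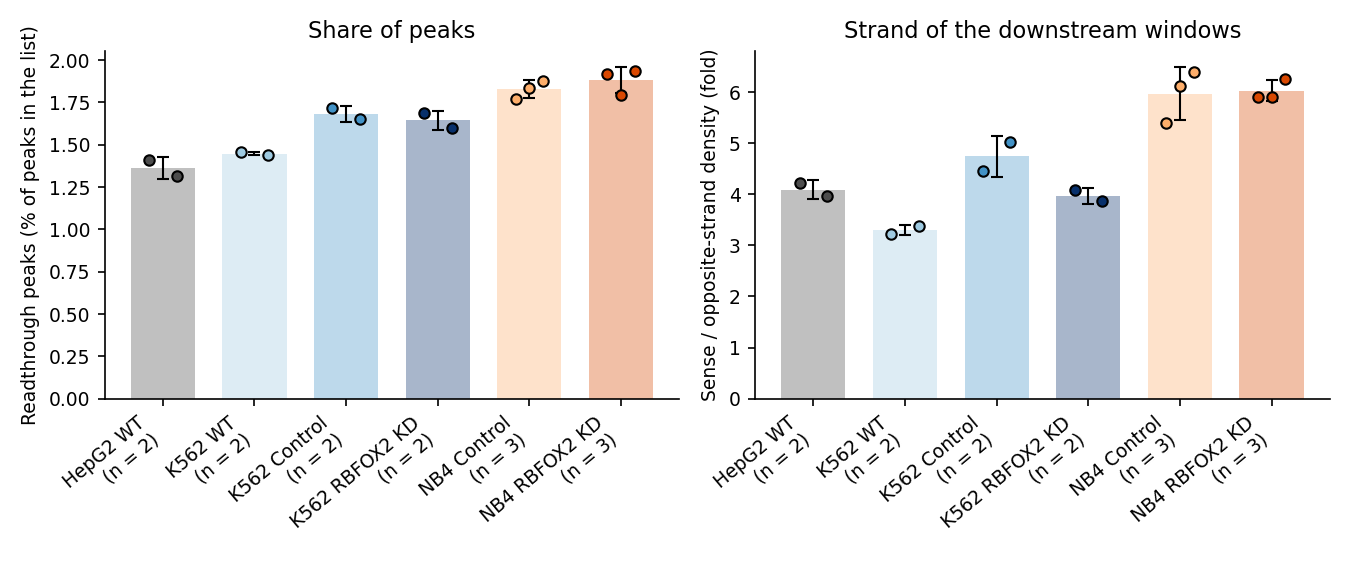
Left, readthrough peaks as a percentage of all peaks in a list, and right, the fold of summit density on the strand of the gene over the opposite strand, for the 6 groups (bars, mean; error bars, SD; points, libraries; both axes start at 0). The share runs from 1.32% in HepG2 to 1.93% in NB4 and the fold from 3.23 in K562 WT to 6.40 in NB4, so that every library lies above a fold of 1.

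The rule takes peaks on the strand of the gene, and the same intervals were searched on the other strand for comparison. The opposite strand, leaving out bases eligible for another gene, held 64 to 168 summits per library, and 1501 in all. Summit density on the strand of the gene was 3.48 to 8.29 per Mb and on the opposite strand 0.824 to 2.16 per Mb. The density was thus 3.23 to 6.40 times higher on the strand of the gene, and higher in 14 of 14 libraries. Since the members were chosen by strand, this is a comparison of the intervals and not a test of the rule.

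The strand fold differed in size between groups. Its mean was 4.09 ± 0.185 in HepG2 WT (SD, n = 2), 3.30 ± 0.099 in K562 WT (SD, n = 2), 4.74 ± 0.40 in K562 Control (SD, n = 2) and 3.97 ± 0.153 in K562 RBFOX2 KD (SD, n = 2). In NB4 it was 5.97 ± 0.513 in Control (SD, n = 3) and 6.02 ± 0.206 in RBFOX2 KD (SD, n = 3). On the log2 scale, K562 WT stood below HepG2 WT by −0.31 and K562 Control above K562 WT by 0.52, both without overlap between libraries (exact permutation test, p = 0.333 each). NB4 Control stood above K562 Control by 0.33 (exact permutation test, p = 0.2).

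Density on the strand of the gene declined with distance. From 0 to 1 kb past the gene end it was 5.64 to 14.02 summits per Mb of eligible sequence across libraries, and from 9 to 10 kb it was 1.71 to 4.87. The opposite strand went from 1.51 to 3.03 per Mb in the nearest kb to 0.599 to 1.95 in the farthest. Between 19.2 and 24.9% of readthrough summits lay within 1 kb of the gene end and 24.96 to 32.8% beyond 5 kb. Within 100 bases of the gene end there were 6 to 19 summits per library, and beyond 9 kb 13 to 37.

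**Figure D2:**
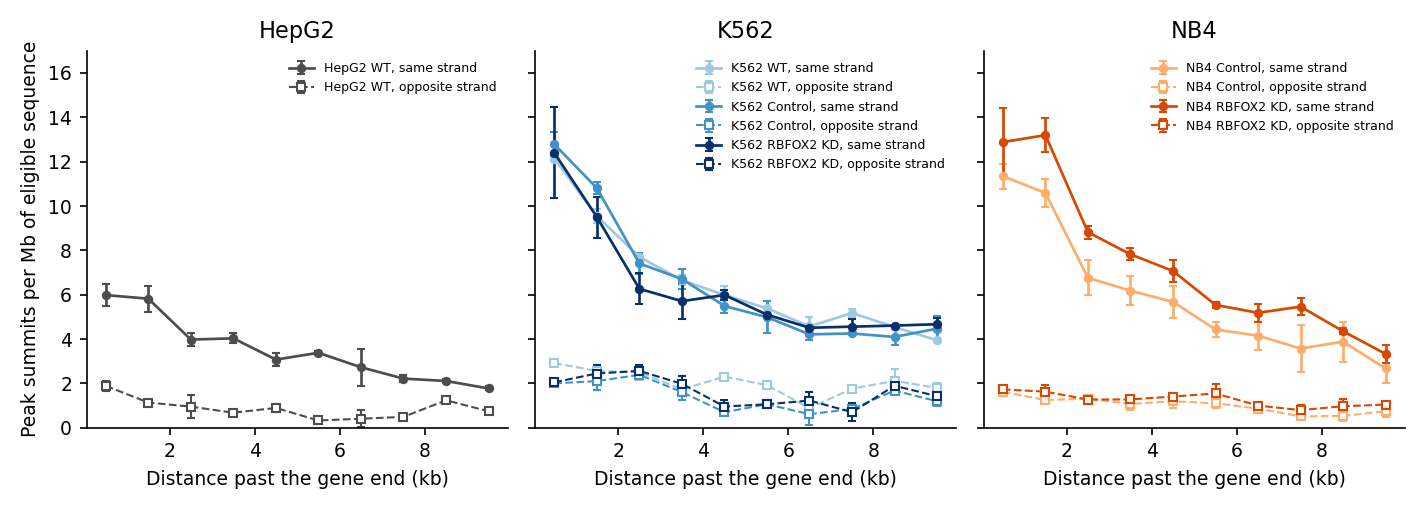
Peak summits per Mb of eligible sequence (vertical axis) in 1-kb steps past the gene end (horizontal axis, kb) for HepG2, K562 and NB4 (solid lines, strand of the gene; dashed lines, opposite strand; points, group means; error bars, SD). The solid lines start between 5.64 and 14.02 per Mb across libraries and end between 1.71 and 4.87.

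Readthrough regions ranged from those of 1 library to those of all 14. Of the 1581 regions, 79 (5.0%) were listed in all 14 libraries, where 8.92% of all regions were, and 371 (23.5%) in 1 library, where 21.9% of all regions were. The 79 shared regions lay downstream of 71 genes, at a median of 1871 bases from the gene end, and 26.6% of them within 1000 bases. Regions of 1 library lay at a median of 2809 bases, with 22.9% of them within 1000 bases.

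The 12 highest-ranked of the shared regions lay downstream of genes with unrelated roles. They followed NAT10 (an RNA cytidine acetyltransferase), ANO7 (an anoctamin), CDK11A (a kinase linked to transcription and splicing), ANKRD36, PICALM (a clathrin assembly protein that is fused to other genes in some leukaemias), CIP2A (an inhibitor of the phosphatase PP2A), ZBED4, SPG21, NDUFS5 (a subunit of mitochondrial complex I), TRAF2 (an adaptor of tumour necrosis factor receptors), XRCC2 (a homologous recombination factor) and WDR4 (a partner of the METTL1 tRNA methyltransferase). Their summits lay 382 bases (XRCC2) to 9057 bases (NDUFS5) past the gene end. The ranks of the same region were often steady within a group and different between lines.

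The NAT10 region, at chr11:34148771-34149527 and 1489 bases past the gene, was high throughout. Its percentiles were 86.55 and 89.05 in HepG2 WT, 90.74 and 93.10 in K562 WT, 91.40 and 95.59 in K562 Control, 91.98 and 90.00 in K562 RBFOX2 KD, 97.93, 98.10 and 97 in NB4 Control, and 97.03, 94.75 and 91.07 in NB4 RBFOX2 KD. HepG2 held the lowest values and NB4 Control the highest, with NB4 Control above every K562 library. The gene itself carried a peak in 14 of 14 libraries, where a peak within a gene is counted here and below by its summit.

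The CDK11A region, at chr1:1698638-1699494 and 3475 bases past the gene, separated HepG2 from the leukaemia lines. Its percentiles were 77.93 and 78.08 in HepG2 WT, 94.10 and 90.66 in K562 WT, 97.98 and 94.59 in K562 Control, 97.58 and 96.60 in K562 RBFOX2 KD, 96.81, 98.37 and 93.31 in NB4 Control, and 90.34, 88.56 and 94.46 in NB4 RBFOX2 KD. All 12 leukaemia libraries lay above both HepG2 libraries.

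The PICALM and NDUFS5 regions differed in which line held the low values. PICALM, 4870 bases past the gene, stood at 95.07 and 92.25 in HepG2 WT, 95.63 and 96.42 in K562 WT, 99.76 and 97.58 in K562 Control, and 99.67 and 99.80 in K562 RBFOX2 KD. It stood lower in NB4, at 70.89, 65.15 and 80.46 in Control and 90.51, 92.24 and 90.26 in RBFOX2 KD. NDUFS5, at chr1:39043541-39044545 and 9057 bases past the gene, stood at 99.17 and 99.25 in HepG2 WT, 97.70 and 98.25 in K562 WT, 87.21, 93.79 and 98.89 in NB4 Control, and 99.51, 99.80 and 99.08 in NB4 RBFOX2 KD. Its K562 Control libraries gave only 54.87 and 74.73 and its K562 RBFOX2 KD libraries 72.69 and 65.02, all below the K562 WT libraries of the same line. ZBED4, at chr22:49892477-49893947 and 3605 bases past the gene, stood between 88.78 and 93.73 in the K562 libraries at 74.91, 84.97 and 80.05 in NB4 Control, and at 90.61, 98.59 and 86.17 in NB4 RBFOX2 KD.

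**Figure D3:**
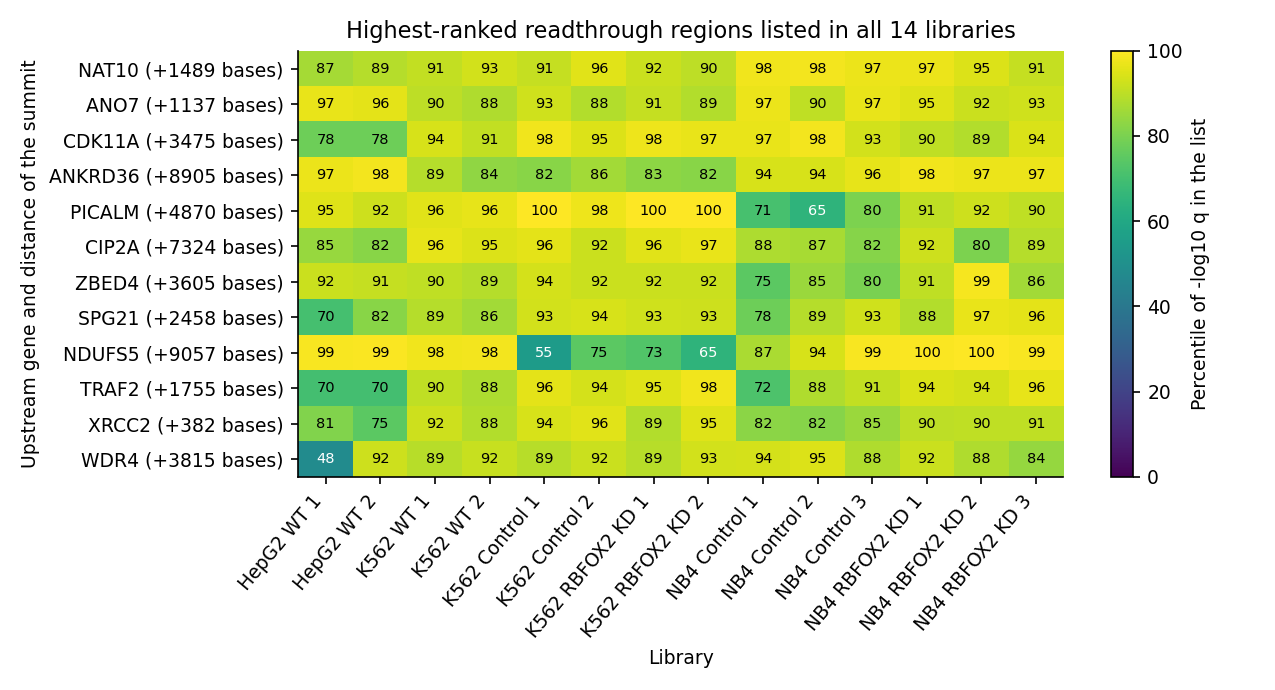
Percentile of the −log10 q (colour and printed value, 0 to 100) of the 12 highest-ranked readthrough regions listed in all 14 libraries (rows, upstream gene and distance of the summit; columns, libraries). NDUFS5 drops to between 54.87 and 74.73 in the K562 Control and RBFOX2 KD libraries, and PICALM to between 65.15 and 80.46 in NB4 Control.

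For 8 of these 12 genes a peak lay within the gene in 14 of 14 libraries, but a readthrough region did not require a peak in the last exon. ZBED4, TRAF2 and XRCC2 had a last-exon peak in 14 libraries, NAT10 in 10, CDK11A in 1 and NDUFS5 in none. SPG21 had a peak within the gene in 2 libraries and CIP2A in 5, while the regions past both genes were listed in all 14.

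Some readthrough regions belonged to 1 cell line. Regions listed in every library of a line and in no other library numbered 75 for HepG2 (4.74%, where 4.6% of all regions were of this kind), 86 for K562 (5.44%, beside 6.33%) and 72 for NB4 (4.55%, beside 3.38%). They lay at median distances of 3212, 2925.5 and 2099.5 bases. A further 38 (2.4%, beside 2.13% of all regions) were listed in every K562 and NB4 library and in neither HepG2 library. Of all 1581 regions, 357 were listed in at least 1 HepG2 library, 949 in at least 1 of K562 and 973 in at least 1 of NB4, lines with 2, 6 and 6 libraries.

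In HepG2 the highest-ranked region of this kind followed ABCC5, an exporter of cyclic nucleotides, with percentiles of 99.71 and 99.76 at 7994 bases past the gene. SSTR5, a somatostatin receptor, followed with 94.00 and 97.80 at 1406 bases, and then ADGRG6 (an adhesion receptor), C4A (complement component) and AAR2 (a splicing factor of the U5 particle), with means of 94.1, 93.1 and 91.9. No peak lay within SSTR5 in either HepG2 library. The C4A words had a median of 2 copies in the genome, so that its reads are uncertain.

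In K562 the highest-ranked region followed TNNI3, which encodes cardiac troponin I, 127 bases past the gene. Its percentiles were 95.76 and 96.42 in WT, 93.32 and 94.79 in Control, and 95.89 and 90.94 in RBFOX2 KD. A peak summit lay within the gene in 3 of these 6 libraries. The merged readthrough region, chr19:55151250-55152057, also reached across the gene end at 55151767. HEPH (a ferroxidase of iron export, 604 bases), PTPRS (a receptor tyrosine phosphatase, 941 bases), CFAP161 (4051 bases) and OR8A1 (an olfactory receptor, 4682 bases) followed, with medians over the 6 libraries of 87.75, 87.16, 86.63 and 84.41. Only 49.6% of the OR8A1 words occurred once in the genome.

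In NB4 the highest-ranked region followed MYO1G, a myosin of haematopoietic cells, with percentiles of 96.42, 96.04 and 97.04 in Control and 98.81, 95.41 and 95.86 in RBFOX2 KD at 533 bases past the gene. P2RY2 (a nucleotide receptor), LSP1 (a leukocyte actin-binding protein), DENND3 (an exchange factor for a RAB protein) and IKBKE (a kinase of innate immunity) followed, with medians over the 6 libraries of 93.62, 93.65, 89.53 and 85.90. Their summits lay 1449 to 4386 bases past the gene end. These genes were ranked by their values and are a description.

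Peaks within marker genes were counted as a check of the labels. Of 14 hepatocyte genes with an eligible downstream base, 5 had a peak within the gene in every HepG2 library and none in every K562 or every NB4 library. Of 10 erythroid genes the numbers were 8 in K562, 2 in HepG2 and 3 in NB4, and of 15 myeloid genes 10 in NB4, 2 in HepG2 and 2 in K562. In any 1 library, 34.9 to 45.9% of all eligible genes had a peak within the gene. Their share in every library of a line was not counted. Past the ends of these genes the numbers were 1 of 10 erythroid, 1 of 15 myeloid and 0 of 14 hepatocyte genes, beside the 7.82% of all eligible genes with a readthrough peak. LMO2, an erythroid cofactor, had a readthrough peak in 4 K562 libraries, and SRGN, the granule proteoglycan serglycin, in 5 NB4 libraries.

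Readthrough peaks accompanied m6A peaks in the gene before them. In a given library, 76.5 to 89.0% of genes with a readthrough peak also had a peak within the gene, beside 34.9 to 45.9% of all eligible genes. A peak in the last exon was present for 49.6 to 60% of them, beside 22.2 to 27.5%. Seen from the gene, 3.75 to 7.67% of genes with a peak had one past the end, beside 0.564 to 1.16% of genes without. In 16.9 to 34.1% of the genes with both, the readthrough peak ranked above the best peak within the gene. Expression was not measured in these lists, and its part in this was not tested.

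The replication-dependent histone genes had the highest share of members with a readthrough peak among the gene lists. These genes encode the core and linker histones of S phase, and their messenger RNAs end in a stem-loop cut without polyadenylation, so that most of their annotations end close to the coding sequence. Of 36 histone genes with an eligible downstream base, 14 (38.9%) had a readthrough peak, where 7.82% of all eligible genes did, and all 14 had it in K562 alone. The number of genes was 12 and 13 in K562 WT, 9 and 10 in K562 Control, 10 and 8 in K562 RBFOX2 KD, and 0 in each of the 2 HepG2 and 6 NB4 libraries. Of all eligible genes, 5.20% had a readthrough peak in at least 1 K562 library, 2.01% in HepG2 and 4.91% in NB4. With 36 genes, the 0 in HepG2 and in NB4 cannot be set apart from these shares. Peaks within the histone genes were also most frequent in K562, with 17 to 21 of the 36 genes per library. There were 4 in each HepG2 library and 1 to 7 in NB4. Of all eligible genes, 40.5 to 45.9% had such a peak in K562, 34.9 and 37.96% in HepG2 and 39.3 to 42.5% in NB4. The K562 counts were thus somewhat above this share, and the HepG2 and NB4 counts below it. The number of histone genes with a readthrough peak in K562 was 10 when the lists were cut to equal length or matched for depth. It was 0 in the other lines in both cases.

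The histone regions lay close to the genes. In 10 of the 14 genes every summit was within 1000 bases of the end, and 4 genes kept a region when only summits beyond 1000 bases were taken. 10 genes lay on chromosome 6 and 4 on chromosome 1. H2AC16, H2BC17, H3C12, H4C9, H4C12, H4C14 and H4C15 had a readthrough peak in every K562 library. H2AC11 and H3C2 had one in 5 of the 6, H2AC15 and H2BC15 in 3, H3C14 in 2, and H3C15 and H4C11 in 1. The annotated H2BC15, H3C12, H4C14 and H4C15 genes span several kb, and how far their annotated ends lie from the coding sequence was not examined. H4C14 and H4C15, like H3C14 and H3C15, are near-identical copies, and the placement of their reads is uncertain.

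The values within K562 differed more between genes than between groups. H4C9, with its summits 18 to 259 bases past the gene, had percentiles of 87.02 and 68.31 in WT, 65.42 and 74.55 in Control, and 66.39 and 65.74 in RBFOX2 KD. H2BC17, at 813 to 861 bases, had 61.69 and 57.38, 78.09 and 83.83, and 71.97 and 81.77 in the same order, its WT libraries lying below the other 4. H3C12, at 404 to 417 bases, had 60.60 and 61.12, 52.12 and 64.17, and 62.53 and 45.63, with overlap between all groups. H4C9 and H2AC16 had no peak summit within the gene in any K562 library, while 9 of the 14 had one in all 6. The H4C9 readthrough peaks together spanned chr6:27139096-27140096 and so covered the gene itself (27139282-27139678), although their summits lay past its end.

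**Figure D4:**
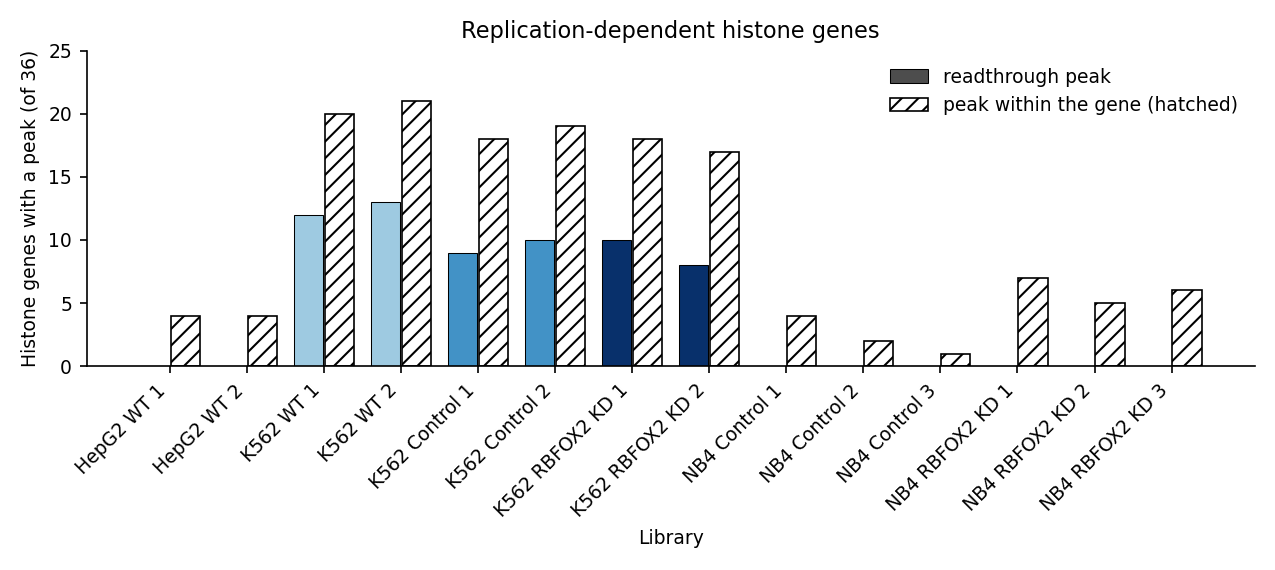
Number of the 36 eligible replication-dependent histone genes with a readthrough peak (filled bars) and with a peak within the gene (hatched bars) in each of the 14 libraries; the axis starts at 0. Readthrough peaks appear in 8 to 13 genes per K562 library and in 0 in HepG2 and NB4.

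Among the other lists, 36 of 312 ZNF-named zinc finger genes (11.5%, beside 7.82% of all eligible genes) had a readthrough peak, in 8 to 26 genes per library. ZNF138, ZNF66, ZNF778, ZNF79 and ZNF852 had one in all 14 libraries, and 10 of the 36 had one in HepG2, where 270 of all 1051 genes with a readthrough peak did. Of 55 cytosolic ribosomal protein genes 4 had one (7.27%, near the 7.82% of all eligible genes): RPL28, RPL3, RPL39L and RPS15A. RPS15A had it in both HepG2 and all 6 K562 libraries and in none of NB4, and RPL3 in all 6 NB4 and 2 K562 libraries. Of 15 genes for 3′ end processing and termination, CSTF1, a cleavage stimulation factor subunit, was the single one, in 2 libraries at percentiles of 8.75 and 9.15. None of the 12 m6A machinery genes had a readthrough peak, and in lists this small neither count can be set apart from the 7.82% of all genes. All 12 had a peak within the gene in every library of each line. Of all eligible genes, 34.9 to 45.9% had a peak within the gene in a given library. Their share in every library of a line, which cannot be higher, was not counted.

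Some genes carried a chain of regions. Of the 1009 genes, 682 had 1 region, 192 had 2 and 135 had 3 or more, up to 8. The 5 genes with the most were the protein-coding gene ENSG00000284906 and MGMT, the alkylguanine DNA repair enzyme, with 8 each, and ATP9B (a P4-ATPase of the flippase family), HECTD4 (a HECT-domain protein) and MAML1 (a Notch coactivator) with 7 each.

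The MGMT chain was present in 2 of the 3 lines. Its peaks, 326 to 9975 bases past the gene end, numbered 4 and 5 in HepG2, 6, 7 and 6 in NB4 Control and 7, 6 and 7 in NB4 RBFOX2 KD, with none in any K562 library. Peaks within MGMT itself were limited in the same way, being present in those 8 HepG2 and NB4 libraries and in none of K562. The region at 1103 bases was listed in all 8 HepG2 and NB4 libraries, with percentiles from 39.70 to 68.09.

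MAML1 carried peaks in every library. The numbers were 2 and 3 in HepG2, 7 and 7 in K562 WT, 5 and 4 in K562 Control, 5 and 5 in K562 RBFOX2 KD, 5, 6 and 6 in NB4 Control, and 6, 7 and 8 in NB4 RBFOX2 KD. They lay 270 to 8950 bases past the gene end. The region at 5244 bases was its highest, with percentiles of 80.32 and 84.78 in HepG2, 92.23 and 93.20 in K562 WT and up to 95.74 in NB4.

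**Figure D5:**
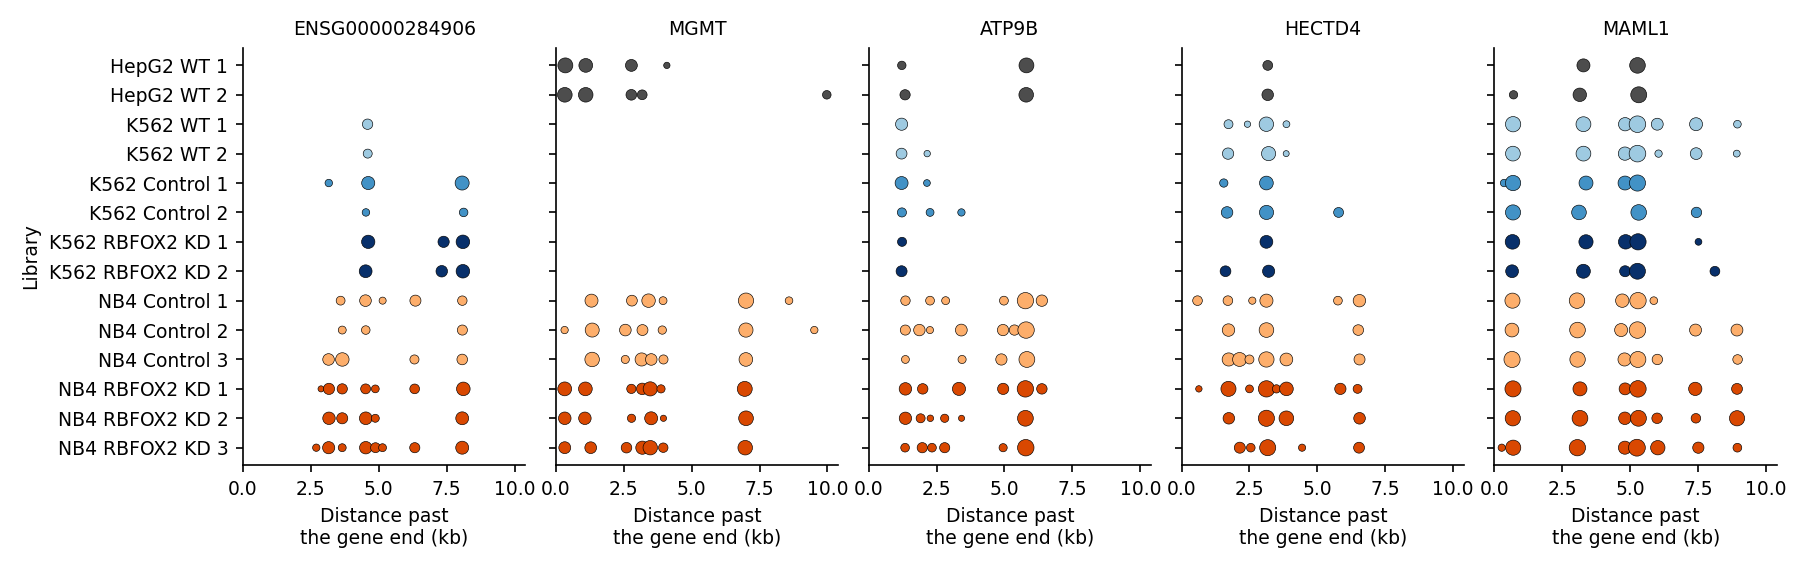
Readthrough peaks past the 5 genes with the most regions (panels), by distance past the gene end in kb (horizontal axis) and library (rows, coloured by group); the size of a point grows with the percentile of its −log10 q. MGMT has 4 to 7 peaks in each HepG2 and NB4 library and 0 in K562, and MAML1 has 2 to 8 peaks in every library.

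RBFOX2 KD was compared with Control within each line, as the study's design does. The lists cannot check the knockdown, since a peak does not measure the level of a transcript. Peaks within RBFOX2 numbered 3 and 2 in K562 Control and 3 and 3 in K562 RBFOX2 KD, and 1, 2 and 2 in NB4 Control and 2, 1 and 1 in NB4 RBFOX2 KD.

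None of the 4 summary measures passed a test between KD and Control. Over both lines, the share of peaks differed by 0.00773 percentage points, with 3 of 5 KD libraries above their Control mean (exact permutation test within lines, two-sided, p = 0.85, adjusted p = 0.85 over the 4 measures). The log2 strand ratio differed by −0.12 (exact permutation test, p = 0.217, adjusted p = 0.433) and the GGACU excess by 1.06 points (exact permutation test, p = 0.65, adjusted p = 0.85). The median distance was greater by 169 bases, with 5 of 5 KD libraries above their Control mean (exact permutation test, p = 0.1, adjusted p = 0.4). The smallest p that the 120 arrangements allow is 0.0167.

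Within K562 the share was lower by −0.0395 points (exact permutation test, p = 0.667), the log2 strand ratio by −0.25 (p = 0.333) and the distance greater by 243.75 bases (p = 0.333). The K562 libraries did not overlap in strand fold, with 4.46 and 5.02 in Control and 4.08 and 3.86 in KD, nor in median distance, with 2715 and 2647 bases in Control and 2793 and 3056.5 in KD, and 0.333 is the smallest p that 2 against 2 allows. The GGACU excess was 19.6 and 15.4 points in K562 Control and 19.3 and 22.5 in K562 RBFOX2 KD (exact permutation test, p = 0.667). Within NB4 the share was higher by 0.0549 points (exact permutation test, p = 0.3), the log2 ratio by 0.02 (p = 0.9) and the distance by 93.7 bases (p = 0.4). The NB4 GGACU excess was 10.9, 13.7 and 12.2 points in Control and 10.6, 11.6 and 10.6 in RBFOX2 KD (exact permutation test, p = 0.2). The groups overlapped in the K562 and NB4 shares and in both GGACU comparisons.

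Regions that were present in every library of one condition and absent from every library of the other were few. In K562, 21 of 823 readthrough regions (2.55%) were listed in both Control and no KD library, where 1.74% of all regions were, and 13 (1.58%) in both KD and no Control library, beside 1.76%. In NB4, 9 of 1063 (0.847%) were listed in the 3 Control libraries and no KD library, beside 0.61%, and 37 (3.48%) in the 3 KD libraries and no Control library, beside 3.68%. The shares of readthrough regions were thus near those of all regions. The NB4 KD libraries had an estimated 16.8 to 21.9 M reads and the NB4 Control libraries 10.8 to 15.6 M. With depth matched, NB4 had 542 readthrough regions. Of these, 14 (2.58%) were of KD alone, beside 1.79% of all regions, and 10 (1.845%) of Control alone, beside 1.9%.

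The regions that came and went were low in rank. In K562 those of Control alone had a median percentile of 21.0 and those of KD alone 9.63, and in NB4 the values were 35.4 and 24.6. In K562 the highest of Control alone followed MNX1 (a homeobox factor, 40.63 and 44.33), MRPL21 (a mitochondrial ribosomal protein, 33.21 and 45.12) and C7orf50 (28.52 and 27.84). Those of KD alone followed ENSG00000284906 (35.21 and 37.54), ATP23 (41.26 and 23.78) and SLC25A10 (a mitochondrial dicarboxylate carrier, 23.70 and 19.21).

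In NB4 the highest regions of Control alone followed BAHCC1 (49.42, 63.45 and 35.53), C13orf46 (42.09, 34.79 and 52.40) and TRPM2 (a cation channel, 33.71, 50.43 and 38.35). Those of KD alone followed TNFRSF10C (a decoy receptor for TRAIL, 84.08, 68.90 and 58.77), SPNS3 (65.33, 66.04 and 66.87) and MILR1 (an immune receptor of mast cells, 51.25, 66.04 and 59.64). No peak lay within MILR1 in any NB4 library. No region of Control alone in one line overlapped one of Control alone in the other, nor did any of KD alone, and 1 gene, ENSG00000284906, had a region of KD alone in each line at different positions.

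Ranks could be compared for regions listed in every Control and KD library of a line. The shares of all regions given beside them are of regions so listed. In K562, 40 of 397 such readthrough regions (10.1%) had a higher percentile in every KD than in every Control library, beside 13.4% of all regions, and 69 (17.4%) a lower one, beside 16.7%. In NB4, 56 of 296 (18.9%) were higher, beside 17.9%, and 16 (5.41%) lower, beside 7.05%. The median change was −1.42 percentile points in K562, beside −0.49 over all regions, and 4.63 in NB4, beside 2.78. The NB4 surplus of higher over lower regions remained with each library left out in turn. It was not kept with lists of equal length or matched for depth. Lists of equal length gave 25 higher and 22 lower of 241, or 10.37% and 9.13%, beside 11.3% and 12.5% of all regions. Lists matched for depth gave 15 and 14 of 154, or 9.74% and 9.09%, beside 9.63% and 13.4%.

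The 12 highest-ranked shared regions are given as values only, since they were chosen by rank over these libraries and were not compared under the other settings. In NB4, 6 of them (ANKRD36, PICALM, ZBED4, NDUFS5, TRAF2 and XRCC2) had a higher percentile in every KD library and none a lower one. Over all regions listed in every NB4 Control and KD library, 17.9% were higher and 7.05% lower. The NB4 KD lists were also the deeper ones, with 16.8 to 21.9 M estimated reads beside 10.8 to 15.6 M in Control. In K562 none of the 12 was higher and SPG21 alone was lower, where 13.4% of all regions so listed were higher and 16.7% lower. PICALM differed most between the NB4 groups, with a mean of 72.2 ± 7.74 (SD, n = 3) in Control and 91.0 ± 1.08 (SD, n = 3) in KD. In K562 it was 98.7 ± 1.55 (SD, n = 2) and 99.7 ± 0.09 (SD, n = 2).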

How the data were processed

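The authors made 1 peak list per immunoprecipitated library. Per the study's methods, reads were trimmed with Trimmomatic 0.39, aligned to hg38 with HISAT2 2.1.0 and GENCODE release 29, split by strand with SAMtools 1.9, and passed to MACS2 for each strand (reads extended to 150 bases, genome size 130 Mb, at most 5 duplicates kept, q under 0.01). The deposited lists hold a score (10 times the −log10 q, cut to a whole number), a fold ratio over local background, and the −log10 p-value and −log10 q-value of each summit. They hold no counts, so presence and rank were compared with the library as the unit. The 14 matched input samples were not analysed here.

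Gene ends and transcript starts came from GENCODE release 44 on hg38. Peaks of the same strand sharing 1 or more bases were merged, and a region was readthrough where its highest-ranked summit was. A peak was counted within a gene or its last exon when its summit lay there on the strand of the gene. A readthrough peak can therefore overlap a gene counted as having no peak. Exact permutation tests were two-sided and adjusted by Benjamini and Hochberg over the 4 measures. Scripts (Python 3.11.15, NumPy 2.4.6, SciPy 1.17.1, pandas 2.3.3, pysam 0.24.0, samtools 1.23.1) were tested on simulated data. Depth was estimated from the lowest background level implied by fold and p, which gave non-whole pileups and hence approximate values in both HepG2 libraries and the third NB4 Control library. Intervals for depth cannot be given, and depth limits how many weak peaks are listed.

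The members and gene lists were chosen with earlier results of these data known. Named genes were the 12 highest-ranked regions of all 14 libraries, the 5 highest of each line alone, the 3 highest of each direction of KD, the 5 genes with the most regions and all list members with a region, of which the zinc finger genes are named only where present in all libraries. Alternatives were windows of 5000 bases, summits over 1000 bases, a −log10 q of at least 5, lists of equal length, lists matched for depth, a denominator of peaks outside genes, DRACH for GGACU, a replicate block and each library left out. The −log10 p of 20 kept when depth was matched was set after seeing the data, as were the histone and rank alternatives. The summit sequences of the PICALM and ABCC5 regions are not reported here.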

Additional observations from a re-analysis of the deposited data

Results flagged for a closer look

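The change in GGACU excess at readthrough summits on RBFOX2 KD differed between the lines by 4.76 percentage points (K562 minus NB4; exact permutation of labels within lines, two-sided, p = 0.1, adjusted p = 0.267 over 4 measures). It was singled out because both K562 KD libraries lay above the K562 Control mean while all 3 NB4 KD libraries lay below the NB4 Control mean. The difference in K562 was 3.44 points and rested partly on 1 library: K562 Control replicate 2 had an excess of 15.4 points and replicate 1 of 19.6, and the difference between lines was 2.62 points without replicate 2 and 6.89 without replicate 1.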

How the results depend on the processing

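Under other settings 355 values kept their direction or stayed within 1.5 times, 33 changed sign and 43 moved further. None of the contrasts had passed a test, and the cause was not tested. With a window of 5000 bases, the distance changed to −54 bases for KD in K562, −36 for K562 WT against HepG2, 78.8 for NB4 Control against K562 Control and −137 for the KD change between lines, the share over both lines to −0.027 points, and the regions of KD alone to 8 in K562 and 24 in NB4. With summits over 1000 bases, the NB4 distance change was −20.2 bases, the NB4 regions of Control alone 5 and the K562 histone genes 4. With lists of equal length, the share changed to −0.101 points (NB4 KD), −0.144 (K562 WT against HepG2), −0.0678 (KD, both lines) and 0.0654 (KD change between lines), the NB4 log2 strand ratio to −0.0714, the GGACU excess of K562 Control against WT to −0.0373 points, the NB4 regions to 17 of Control alone and 13 of KD alone, the regions of all libraries to 44 and the NB4 regions of higher percentile to 25. With depth matched, the share changed to 0.0154 points (K562 KD) and 0.0138 (KD change between lines), the NB4 strand ratio to −0.16, the distance to −39.3 bases (NB4 KD) and −261 (K562 WT against HepG2), the K562 regions to 6 of Control alone and 8 of KD alone, the NB4 regions of KD alone to 14, those of all libraries to 15, the K562 regions of lower percentile to 39 and the NB4 regions of higher percentile to 15. As a share of peaks outside genes the changes were −0.733 points (NB4 KD), −1.38 (both lines) and −8.59 (K562 WT against HepG2), and with DRACH the excess changed by 0.0254 points (NB4 KD) and −0.162 (K562 Control against WT). A −log10 q of at least 5 gave no such value.

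Leaving out 1 library at a time, the counts rose because fewer libraries had to agree: K562 regions of Control alone 30 to 115 and of KD alone 34 to 65, NB4 13 to 19 and 42 to 86, regions of higher percentile 98 to 136 in K562 and 67 to 94 in NB4, and of lower percentile 143 to 193 and 24 to 35. The highest counts came without K562 Control replicate 1 (115 and 193), K562 Control replicate 2 (136), K562 RBFOX2 KD replicate 2 (65), NB4 Control replicate 1 (19 and 35) and NB4 Control replicate 3 (86 and 94). The contrasts that changed sign ran from −0.013 to 0.0292 points (share, KD, both lines), −0.0809 to 0.002 (share, K562 KD), −0.0544 to 0.0676 (log2 strand ratio, NB4 KD), −136.5 to 17 bases (NB4 Control against K562 Control), −0.921 to 3.34 points (GGACU, K562 Control against WT) and −0.0056 to 2.13 (GGACU, KD, both lines). The exact permutation test gave its smallest p of 0.0167 (adjusted p = 0.0667) for the distance over both lines, 217 bases, without NB4 Control replicate 3, and with a window of 5000 bases for the KD change in log2 strand ratio between lines, −0.41 beside −0.27.

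The replicate numbers did not pair the samples: deviations of same-numbered libraries correlated at −0.0865 in K562 and at −0.0461, −0.0538 and −0.150 in NB4. With a replicate block the differences kept their values by construction. Over both lines the share differed by 0.00773 points (exact permutation test, p = 0.875) and the distance by 169 bases (exact permutation test, p = 0.188). The same-numbered pairs were too few for this test to give a p under 0.05, so it cannot show whether a block would change a call.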

Other observations

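Motifs other than the methylation consensus were counted in the same 151-base windows, on the strand of the peak. UGCAUG, the motif known for RBFOX proteins, occurred in 2.81 to 6.12% of readthrough summit windows per library and in 2.66 to 4.21% of flanking windows. AGAUG occurred in 19.8 to 27.0%, beside 17.1 to 22.1% of flanking windows, with an excess of 0.556 to 7.84 points (median 3.96). The excess over all peaks of the same lists was 2.67 to 5.94 points (median 3.95), so it was not particular to readthrough peaks. AAUAAA, the polyadenylation signal, occurred in 5.35 to 13.1%, beside 8.72 to 11.9%. A match is a description of the sequence and not of binding or cleavage.

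The genes before readthrough regions were of usual structure. Their median length was 34.3 kb with a median of 9 exons, beside 28.4 kb and 8 exons over all eligible genes and 38.1 kb and 10 exons over the 8079 eligible genes with a peak within the gene in at least 1 library. The next gene on the same strand lay at a median of 20.9 kb, beside 23.3 kb over all eligible genes, and within 10 kb for 28.6% of them, beside 29.02%. For the 71 genes before a region of all 14 libraries the median was 16.8 kb and the share 35.2%.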
